A study of Mus musculus with 18 samples.

Results

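The killer lectin-like receptors are C-type lectin-like membrane proteins that were first described on natural killer (NK) cells and are also carried by activated, memory and innate-like T cells. The 6 rows of the deposited expression table with these gene symbols were taken: Klrd1, Klrk1, Klrc1, Klrc2, Klrg1 and Klrb1c. They are 6 of 23951 distinct symbols in the table. RNA had been sequenced from CD4+CD25-CD62Lhi naive T cells, sorted by flow cytometry from C57BL/6 mice of 6 genotypes, with 3 libraries per genotype and 18 in all.

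In cluster Tg mice, T cells over-expressed the entire cluster that encodes miR-23, miR-27 and miR-24. In the miR-23 Tg, miR-24 Tg or miR-27 Tg mice the T cells over-expressed only the named microRNA. T cells of DKO mice had both the a and the b cluster deleted, and WT mice were the controls. The labels list the genotype of the last pair as DKO Tg and WT Tg and do not say which transgene is meant. The promoter or Cre line that limited each change to T cells, the age of the mice and the number of animals per library are not stated in the labels. The p-values measure only how far these libraries spread, and that spread may be partly technical.

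KLRD1 (CD94) pairs with a KLRC chain to form a receptor for the class Ib molecule Qa-1, which is encoded by H2-T23. The pair with KLRC1 (NKG2A) inhibits the cell through phosphatases, and the pair with KLRC2 (NKG2C) activates it through the adaptor TYROBP (DAP12). KLRK1 (NKG2D) forms a homodimer that binds stress-induced ligands and signals through HCST (DAP10) or TYROBP. KLRG1 is an inhibitory receptor for cadherins and a marker of terminally differentiated effector T cells, and KLRB1C is the antigen that defines NK and NKT cells in C57BL/6 mice. Most naive CD4 T cells carry little of these receptors. In the RefSeq annotation of GRCm38.p6 all 6 genes lie on chromosome 6. Klrd1 and Klrk1 are direct neighbours among protein-coding genes, Klrc2 and Klrc1 are the next such pair, Klrb1c stands between Klrb1 and Klrb1b, and Klrg1 stands apart between Mug2 and M6pr.

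The genotypes differ in 3 mature microRNAs, whose sequences are shown 5′ to 3′, from RefSeq, because the transgenes add them singly or together. The seed, bases 2 to 8, is in capitals.
mmu-miR-23a-3p: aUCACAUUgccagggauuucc
mmu-miR-27a-3p: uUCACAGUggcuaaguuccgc
mmu-miR-24-3p: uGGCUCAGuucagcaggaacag
The letters that pair with each seed (AATGTGA for miR-23, ACTGTGA for miR-27 and CTGAGCC for miR-24, plus strand of the transcript only) were sought in the longest annotated 3′ UTR of each receptor (GENCODE M21 transcripts, GRCm38). Klrd1, whose 3′ UTR has 306 bases, held none of them, and neither did Klrc1, Klrc2 and Klrb1c, with 1186, 2162 and 1800 bases. The Klrk1 3′ UTR of 2463 bases held 1 miR-27 match, at base 568, and none for miR-24 or miR-23. The Klrg1 3′ UTR of 776 bases held 1 miR-24 match, at base 17. Both are shown with the matching letters in capitals.
Klrk1, miR-27 seed match: aacagaggaACTGTGAgaactggag
Klrg1, miR-24 seed match: cactgtgtcCTGAGCCtcggatctg
Among all 20966 genes with a 3′ UTR, 15% held the miR-23 letters, 15.9% the miR-27 letters and 16.1% the miR-24 letters. Among 3′ UTRs of like length (within 20% of that of the receptor), 25.9% held the miR-27 letters found in Klrk1 and 10.2% the miR-24 letters found in Klrg1. A match describes the letters only, and absence of one says nothing beyond this stretch.

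Expression is in RPKM, reads scaled to transcript length and to the total of mapped reads. Relative depth, read from the lowest values, was lowest in miR-27 Tg replicate 3 (0.634) and highest in cluster Tg replicate 3 (1.47), with WT replicate 1 set to 1; absolute depth is unknown. In miR-23 Tg, columns 3 and 4 of the table carry 1 name in the header and are called by these numbers. In an earlier look at these data DKO replicate 3 and miR-27 Tg replicate 3 lay far from the other libraries, and results are given without this pair where they rest on it. Of the markers of CD4 T cells, Cd4 stood at 334.2 RPKM or more and Cd3e at 266.6 or more in all 18 libraries. As for the naive state, markers of effector or memory T cells stood above WT in the miR-24 Tg, miR-27 Tg and cluster Tg libraries, with values given at the end. A gene was tested if it reached 1 RPKM in at least 3 of the 18 libraries, and differences are given as log2 values of RPKM + 1, a scale on which changes of low genes come out too small. A gene was called where limma's Benjamini-Hochberg adjusted p was under 0.05.

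**Figure D1:**
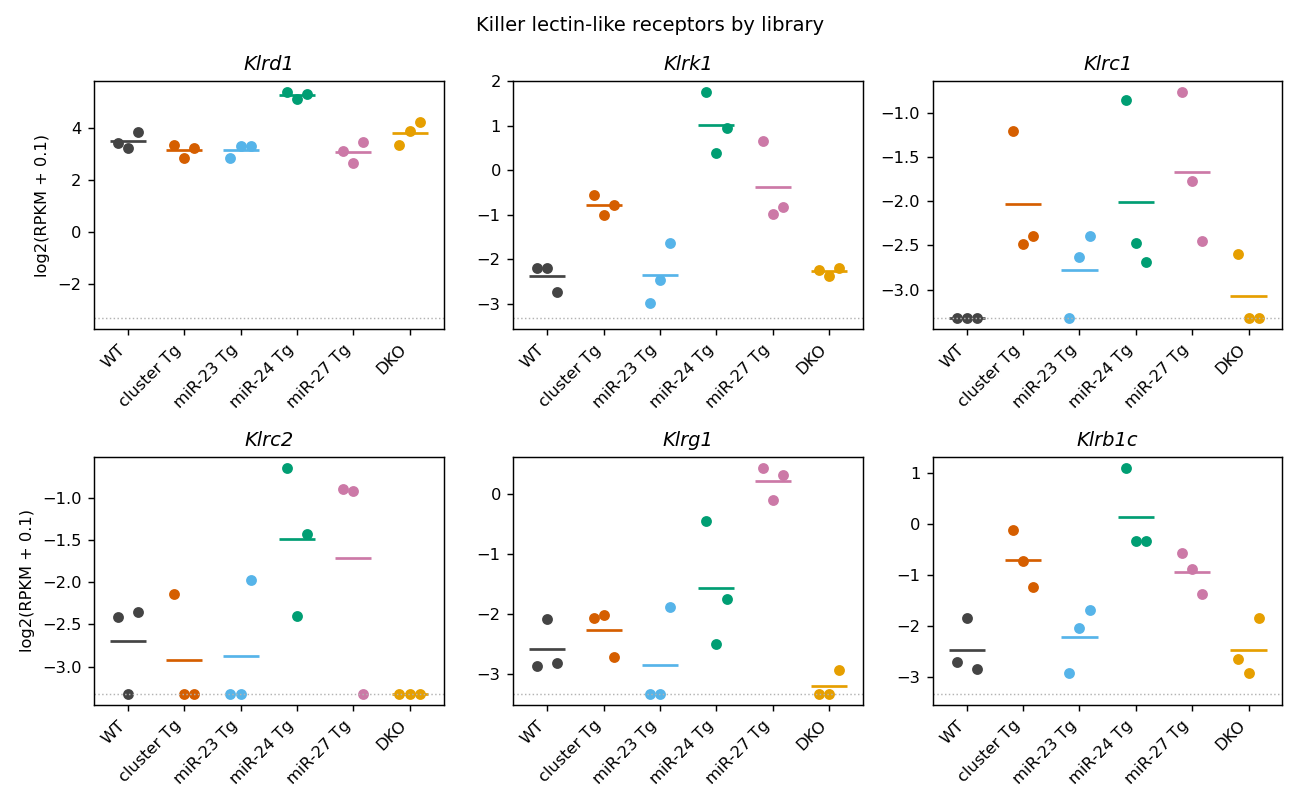
Level of each of the 6 receptors in every library, as log2(RPKM + 0.1), by genotype; points are libraries, bars are means of the 3 log2 values, and the dotted line marks a value listed at 0. The scale differs between panels. Klrd1 stood highest in miR-24 Tg (35.2 to 41.9 RPKM), Klrg1 in miR-27 Tg (0.828 to 1.24 RPKM).

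The CD94 chain was the only receptor of the 6 above 1 RPKM in WT cells, and it rose in miR-24 Tg. Klrd1 read 10.6, 9.40 and 14.5 RPKM in the WT libraries. It read 41.9, 35.2 and 39.6 RPKM in the miR-24 Tg libraries. All 3 miR-24 Tg values lay far above the highest value of any other genotype, the 18.9 RPKM of DKO replicate 3. The means were 38.9 ± 3.41 RPKM in miR-24 Tg and 11.5 ± 2.68 in WT (SD, n = 3 each). The difference was a log2 of 1.69 (SE 0.23), with an adjusted p = 0.00155 from limma. In that comparison 3.59% of the 11099 tested genes were called. The call held in all 13 alternatives tried, with a log2 from 1.57 to 1.86.

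In the other genotypes Klrd1 overlapped WT and was not called. Klrd1 read 10.2, 7.07 and 9.34 RPKM in cluster Tg, whose mice also over-express miR-24, and the log2 difference from WT was -0.33 (SE 0.23, limma adjusted p = 0.511). It read 7.19, 9.92 and 9.77 RPKM in miR-23 Tg and 8.68, 6.17 and 11.0 in miR-27 Tg, each overlapping the WT libraries. In DKO the values were 10.1, 14.7 and 18.9 RPKM, a log2 of 0.30 above WT (SE 0.23, limma adjusted p = 1.00). Ordered by mean, miR-24 Tg was followed by DKO (14.6 ± 4.36 RPKM), WT, miR-23 Tg (8.96 ± 1.54), cluster Tg (8.87 ± 1.62) and miR-27 Tg (8.62 ± 2.42). Only at the first step of this order did the ranges of neighbours not overlap.

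The difference between the single and the whole transgene was tested directly. Klrd1 was higher in miR-24 Tg than in cluster Tg by a log2 of 2.02 (SE 0.23, limma adjusted p = 0.000583), in a comparison in which 2.22% of genes were called. That call too held in all 13 alternatives, from 1.89 to 2.14. Between cluster Tg and DKO, where 11.3% of genes were called, the Klrd1 difference of -0.63 missed the threshold (limma adjusted p = 0.108). Without DKO replicate 1 it was -0.85 and passed, at a limma adjusted p = 0.0459, where 814 of 11099 genes were called. That library has the lowest Klrd1 of DKO (10.1 RPKM), so leaving it out widens the gap. The highest, replicate 3 (18.9 RPKM), is of the pair that lay far from the other libraries, and the fit without it is not given here. The F test over the 6 genotypes called Klrd1 (adjusted p = 0.000196) among 19% of genes.

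The chains that pair with KLRD1 were near the floor of the data. Klrc1, the inhibitory partner, was listed at 0 in all 3 WT libraries. It read 0.453, 0.0808 and 0.0545 RPKM in miR-24 Tg, 0.488, 0.192 and 0.0829 in miR-27 Tg, and 0.332, 0.0785 and 0.0896 in cluster Tg. Each of these 9 libraries lay above WT, as any value above 0 would, and in each genotype 1 library stood above the others. Counted in steps of the smallest value above 0 for this gene at equal depth, miR-24 Tg stood at 11.0, 1.5 and 1.0. The libraries of miR-27 Tg stood at 9.1, 4.4 and 1.0 steps and those of cluster Tg at 8.7, 1.9 and 2.5. In miR-23 Tg it was listed at 0, 0.0615 and 0.0908 RPKM, and in DKO it was above 0 in replicate 1 alone, at 0.0657.

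Klrc2, the activating partner, was listed at 0 in all 3 DKO libraries and in 1 WT library, the other WT values being 0.0875 and 0.0960 RPKM. It read 0.541, 0.0896 and 0.272 RPKM in miR-24 Tg, and 0.437, 0.431 and 0 in miR-27 Tg. Both genotypes overlapped WT. In miR-23 Tg and also cluster Tg it was above 0 in 1 library each, at 0.156 and 0.127 RPKM. Without a filter on low values, limma called neither Klrc1 nor Klrc2 against WT in any genotype. The nearest for Klrc1 was miR-27 Tg, at a log2 of 0.31 (SE 0.13, unadjusted p = 0.0266, adjusted p = 0.178). Klrc2 in miR-27 Tg had a log2 of 0.26 (adjusted p = 0.293), and without replicate 3 of that genotype 0.44 (adjusted p = 0.0338). Klrc1 and Klrc2 are close paralogs, also of Klrc3, and the sources used here do not give how reads shared between them were counted.

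The sum of Klrc1, Klrc2 and Klrc3 was far below Klrd1 in every genotype. In miR-24 Tg the summed level was 0.170 to 1.22 RPKM beside 35.2 to 41.9 of Klrd1, and in WT 0 to 0.0960 beside 9.40 to 14.5. RPKM is scaled by transcript length, so these levels can be set side by side. How reads shared between the Klrc paralogs were counted is not known, and the sum may be too low for that reason. The ligand gene of the pair, H2-T23, was abundant, at 165.4 RPKM or more in all 18 libraries. It differed from WT by a log2 of 0.12 in miR-24 Tg (SE 0.22, limma adjusted p = 0.957) and was not called in any comparison of all libraries. Without DKO replicate 3 and miR-27 Tg replicate 3, H2-T23 was higher in cluster Tg than in DKO by a log2 of 0.51 (limma adjusted p = 0.0390), where 27.6% of genes were called.

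Klrk1, which encodes NKG2D, was barely present in WT and rose in miR-24 Tg. The WT libraries read 0.118, 0.118 and 0.0487 RPKM. The miR-24 Tg libraries read 3.27, 1.21 and 1.82 RPKM, all above the 3 WT values, with replicate 1 the highest. The log2 difference was 1.45 (SE 0.22, limma adjusted p = 0.00261), and without replicate 1 it was 1.19 (adjusted p = 0.0121). Klrk1 passed the filter only through these 3 libraries and miR-27 Tg replicate 1, so it had to differ between genotypes to be tested at all. In the fit without a filter it was called as well (adjusted p = 0.00347).

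Klrk1 also stood above WT in miR-27 Tg and cluster Tg. It read 1.48, 0.409 and 0.467 RPKM in miR-27 Tg, against 0.582, 0.398 and 0.481 in cluster Tg. Neither group overlapped WT. The log2 differences were 0.66 (limma adjusted p = 0.0877) and 0.44 (limma adjusted p = 0.302), which are not calls, in comparisons where 8.95% and 8.48% of genes were called. With a pseudocount of 0.1 in place of 1 and no filter, which weighs low values more, the differences are larger: 3.41 in miR-24 Tg (limma adjusted p = 0.00173, 2.94% of genes called). On that scale the miR-27 Tg difference was 2.00 and was called (limma adjusted p = 0.0169, 6.58% called), while that of cluster Tg was 1.60 (adjusted p = 0.0527, 6.03% called). In miR-23 Tg the 3 values were 0.0266, 0.0809 and 0.224 RPKM and in DKO 0.111, 0.0912 and 0.117, both across the WT range. By mean the order was miR-24 Tg (2.10 ± 1.06 RPKM), miR-27 Tg (0.786 ± 0.603), cluster Tg (0.487 ± 0.0921), miR-23 Tg (0.111 ± 0.102), DKO (0.107 ± 0.0137) and WT (0.0952 ± 0.0403). The ranges of miR-24 Tg and miR-27 Tg overlapped, as did those of miR-27 Tg and cluster Tg and of the last 3.

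Against cluster Tg, Klrk1 was higher in miR-24 Tg by a log2 of 1.01 (SE 0.22, limma adjusted p = 0.0303). This call was lost in 8 of 13 alternatives, with adjusted p from 0.0125 to 0.117, among them the fits without miR-24 Tg replicate 1 or 3 and without each cluster Tg library. The F test over genotypes called Klrk1 (adjusted p = 0.00185).

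**Figure D2:**
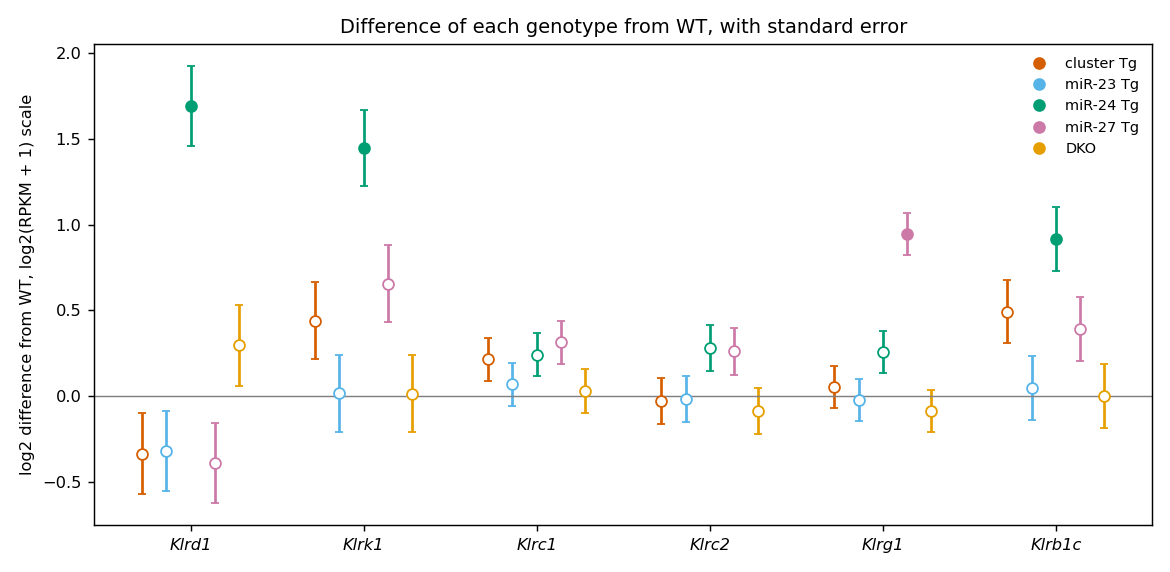
Log2 difference of each genotype from WT for the 6 receptors, on the log2(RPKM + 1) scale, with standard errors from limma; filled points are calls at an adjusted p under 0.05. Klrd1 and Klrk1 come from the fit of filtered genes and the other 4 from the fit without a filter. The filled points are Klrd1 (1.69), Klrk1 (1.45) and Klrb1c (0.92) in miR-24 Tg and Klrg1 (0.95) in miR-27 Tg.

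The other 4 receptors did not reach the filter and were tested in a fit of all 18238 rows with a value above 0. Klrg1 lay just outside, with 1 RPKM reached in 2 libraries, and Klrk1 just inside, with 4. Klrg1, the marker of terminal effector cells, rose in miR-27 Tg. It read 1.24, 0.828 and 1.14 RPKM there and 0.0381, 0.135 and 0.0418 in WT. On the scale of the smallest step seen for this gene at equal depth, these are 32, 26 and 19 steps against 1, 4 and 1. All 3 miR-27 Tg libraries lay above every other library of the study, the nearest being miR-24 Tg replicate 1 at 0.626 RPKM. The log2 difference from WT was 0.95 (SE 0.12, limma adjusted p = 0.000701), where 6.04% of the rows were called. It held in 8 of 8 alternatives, from 0.89 to 2.80, and was 0.92 without miR-27 Tg replicate 3.

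In cluster Tg, which over-expresses miR-27 together with the other family members, Klrg1 read 0.138, 0.147 and 0.0519 RPKM and overlapped WT. The log2 difference was 0.05 (SE 0.12, limma adjusted p = 0.972). In miR-24 Tg the values were 0.626, 0.0781 and 0.198 RPKM, again overlapping WT, with a log2 of 0.26 (limma adjusted p = 0.406). In miR-23 Tg Klrg1 was above 0 in column 4 alone, at 0.170 RPKM. In DKO it was above 0 in replicate 3 alone, at 0.0311 RPKM, and all 3 values lay below WT. This value and the lowest 2 of WT are 1 step each, so they differ by depth scaling alone. An exact two-sided permutation test of 3 libraries against 3 gave p = 0.10, the smallest it allows. The step from miR-27 Tg to miR-24 Tg was the one step in the order of Klrg1 levels at which ranges did not overlap. The difference between miR-27 Tg and cluster Tg was not tested.

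Klrb1c, which marks NK and NKT cells, had its highest mean in miR-24 Tg, like Klrd1 and Klrk1. It read 0.0546, 0.178 and 0.0399 RPKM in WT, and 2.03, 0.688 and 0.696 in miR-24 Tg. The groups did not overlap, and replicate 1 was the highest of the 18 libraries. The log2 difference was 0.92 (SE 0.19, limma adjusted p = 0.0191), in a comparison where 2.56% of the rows were called. It was 0.64 (adjusted p = 0.0246) without miR-24 Tg replicate 1. The call was lost without WT replicate 1 (adjusted p = 0.0801) and without WT replicate 3 (adjusted p = 0.0782).

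In cluster Tg Klrb1c read 0.814, 0.504 and 0.323 RPKM, and in miR-27 Tg 0.573, 0.441 and 0.287, all above WT. The log2 differences were 0.49 (limma adjusted p = 0.166) and 0.39 (limma adjusted p = 0.253). With a pseudocount of 0.1 the cluster Tg differences were called, at 1.76 from WT (adjusted p = 0.0420) and 1.76 from DKO (adjusted p = 0.0338, where 8.2% of the rows were called). The miR-23 Tg values of 0.0327, 0.142 and 0.211 RPKM and the DKO values of 0.0606, 0.0330 and 0.178 overlapped WT. By mean, miR-24 Tg was followed by cluster Tg and miR-27 Tg, whose ranges overlapped, and then by miR-23 Tg, WT and DKO, whose ranges overlapped too. The ranges of miR-24 Tg and cluster Tg also overlapped. In the fit without a filter the log2 difference between them was 0.42 and was not called (limma adjusted p = 0.381). Klrb1c has close paralogs in the Klrb1 family, so its counts may be shared with them.

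Seen by genotype, miR-24 Tg and miR-27 Tg each had 4 of the 6 receptors with all libraries above all WT libraries, cluster Tg had 3, and miR-23 Tg and DKO had 0. The same held for 14%, 12.5%, 17.8%, 11% and 2.32% of all rows with a value above 0. In miR-24 Tg the 4 were Klrd1, Klrk1, Klrc1 and Klrb1c, and in miR-27 Tg Klrk1, Klrc1, Klrg1 and Klrb1c. In cluster Tg they were Klrk1, Klrc1 and Klrb1c. These comparisons share the WT libraries. As Klrc1 was listed at 0 in WT, any value above 0 counted for it. In the fit of filtered genes neither Klrd1 nor Klrk1 was called against WT in miR-23 Tg or DKO, where limma called 0.045% and 0% of all genes (in DKO, 81 genes had an unadjusted p under 0.05). Klrk1 had log2 differences of 0.02 in both. In the fit without a filter, the F test over genotypes called Klrd1, Klrk1, Klrg1 and Klrb1c, 4 of 6, where 13.4% of rows were called, with adjusted p of 0.000572 for Klrg1 and 0.0166 for Klrb1c.

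How far Klrd1 moved with the other receptors across libraries depended on the miR-24 Tg libraries. On the log2(RPKM + 0.1) scale, Klrk1 and Klrb1c had a Pearson r of 0.93 over the 18 libraries and 0.88 over the 15 libraries outside miR-24 Tg. Klrk1 and Klrc1 had r of 0.76 and 0.89. Klrd1 and Klrk1 had an r of 0.56 over 18 libraries and -0.35 over the 15. Klrd1 and Klrb1c had an r of 0.44 and -0.40. With Klrc2, Klrc1 and Klrg1, Klrd1 had r of 0.32, 0.07 and 0.01 over the 18 libraries and -0.32, -0.43 and -0.37 over the 15. The libraries share genotypes and differ in depth, the 4 lowest receptors are sparse, and these values are descriptions without a test.

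**Figure D3:**
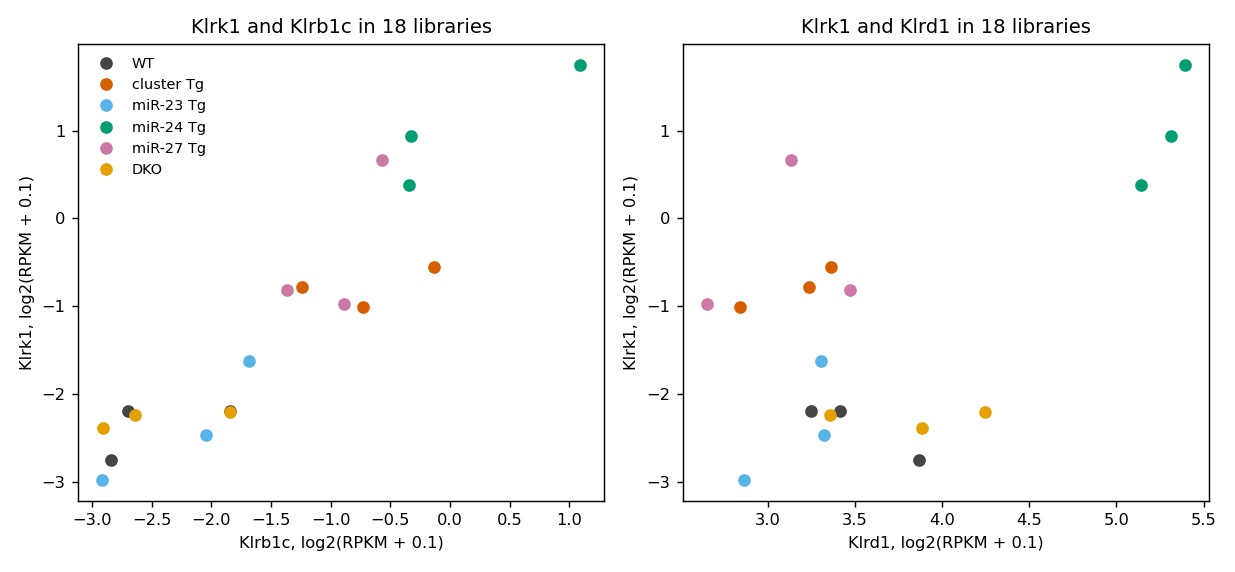
Klrk1 plotted against Klrb1c (left) and Klrd1 (right) in the 18 libraries, all as log2(RPKM + 0.1), coloured by genotype. Klrk1 and Klrb1c rise together across genotypes (r = 0.93), whereas on the right miR-24 Tg stands alone at high Klrd1 and the other 15 libraries have r = -0.35.

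Genes with the pattern most like each receptor were taken as the 5 tested genes of highest Pearson r over the 18 libraries. For Klrd1 they were Poglut1 (r = 0.88), Msantd2 (0.87), Cnpy4 (0.86), Zfp422 (0.86) and Gpr171 (0.84). Gpr171, a G protein-coupled receptor, had a mean of 40.4 RPKM in miR-24 Tg and 21.5 in WT, and its r without miR-24 Tg was 0.53. For Klrk1 they were Nqo2 (0.90), Sh3tc1 (0.87), Serpina3g (0.86), Il2ra (0.86) and Socs5 (0.86). Serpina3g, a serine protease inhibitor of activated T cells, averaged 6.73 RPKM in miR-24 Tg and 0.334 in WT. Il2ra encodes CD25, the antigen that the sort excluded, and averaged 3.96 RPKM in miR-24 Tg and 0.805 in WT.

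The promoters of Klrk1 and Klrb1c are shown, because these receptors moved together. Each runs from 250 bases before to 50 after the annotated start, from RefSeq on GRCm38.p6, minus strand. The Runx core letters (TGTGGT, or ACCACA on the other strand), which are bound by the RUNX factors of T and NK cells, are in capitals.
Klrk1, chr6:129623815-129624114: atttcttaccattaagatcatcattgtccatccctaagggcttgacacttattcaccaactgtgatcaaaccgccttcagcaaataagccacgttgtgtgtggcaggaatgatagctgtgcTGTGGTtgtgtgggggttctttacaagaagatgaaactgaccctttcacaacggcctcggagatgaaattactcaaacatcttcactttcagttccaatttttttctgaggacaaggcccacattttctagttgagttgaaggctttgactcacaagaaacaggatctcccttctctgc
Klrb1c, chr6:128788592-128788891: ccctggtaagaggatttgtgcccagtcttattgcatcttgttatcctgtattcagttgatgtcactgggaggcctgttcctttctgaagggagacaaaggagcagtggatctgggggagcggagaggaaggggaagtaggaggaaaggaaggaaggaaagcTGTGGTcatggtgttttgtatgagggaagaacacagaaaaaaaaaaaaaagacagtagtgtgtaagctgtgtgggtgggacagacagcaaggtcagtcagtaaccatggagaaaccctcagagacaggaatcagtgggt
The promoters of Klrc1 and Klrc2 held the same letters on the other strand, shown as short windows.
Klrc1: gttgttgttgttACCACAgcactcgtattc
Klrc2: ttcaatagaatcACCACAgcatagaacaca
Klrc2 held a second copy, and it has a pair of annotated starts that share both copies. Of the 6 receptors, 4 had a promoter in the table, and all 4 held the Runx core letters, as did 18.9% of 27025 genes (16.8% of their 32851 promoters of this length). The T-box half-site letters (GGTGTGA, or TCACACC on the other strand), which T-bet and Eomes bind, were in none of the 4 and in 4.6% of all genes (3.98% of promoters). Matches of these motifs can overlap, which did not occur in the 4 promoters. Such matches describe letters and not binding.

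Of the other lectin-like genes of the NK gene complex, 26 of 27 listed were in the table and 4 passed the filter (Klrb1f, Clec2d, Clec2i and Cd69). Klrb1f, a receptor of the Klrb1 family, was called in 3 genotypes. It read 0.155, 0.312 and 0.179 RPKM in WT and 7.02, 4.28 and 3.59 in cluster Tg. It read 2.07, 0.840 and 1.82 RPKM in miR-24 Tg and 2.21, 1.25 and 0.720 in miR-27 Tg. None of these 3 genotypes overlapped WT, and cluster Tg stood above all other libraries. The log2 rises over WT were 2.26 in cluster Tg, 1.05 in miR-24 Tg and 0.93 in miR-27 Tg (limma adjusted p = 8.39e-05, 0.0273 and 0.0277). Klrb1f was lower in miR-24 Tg than in cluster Tg by a log2 of -1.20 (SE 0.24, limma adjusted p = 0.0181), the reverse of the order of Klrd1 and Klrk1. Klrb1f passed the filter only through libraries of these 3 genotypes, so it had to differ to be tested. In the fit without a filter it was called as well, with adjusted p of 0.000137, 0.0351 and 0.0370 against WT and 0.0216 against cluster Tg, where 5.92%, 2.56%, 6.04% and 1.9% of rows were called. The median log2 difference of the 4 tested genes from WT was 0.37 in miR-24 Tg, 0.37 in miR-27 Tg and 0.22 in cluster Tg, beside 0.01, 0.03 and 0.00 over all genes.

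The adaptors that carry the signal of the activating receptors were measured too. Of 15 adaptor and signalling genes, all tested, limma called 0 in miR-24 Tg and 0 in cluster Tg, where 3.59% and 8.48% of all genes were called. At an unadjusted p under 0.05 were 6 and 1 of the 15, beside 1593 and 2230 of all 11099 genes. In miR-27 Tg, where 8.95% of all genes were called, 4 rose (Tyrobp, Fcer1g, Syk and Plcg2). Fcer1g and Plcg2 passed the filter only through libraries of these 3 genotypes. Tyrobp and Syk also reached 1 RPKM elsewhere, but in fewer libraries than the filter asks. All 4 thus had to be high in these genotypes to be tested, and no fit without a filter is given for them. Without the pair of libraries that lay far from the others, 4 were higher and 3 lower in miR-24 Tg, 8 and 1 in miR-27 Tg, and 1 and 2 with the whole cluster. In that fit 17.5%, 20% and 29.1% of all genes were called, and the 3 of 15 with the whole cluster is below the last share. Hcst, which encodes the NKG2D adaptor DAP10, read 247.1, 226.5 and 253.9 RPKM in WT and 200.5, 166.9 and 182.0 in miR-24 Tg. It read 110.0, 142.5 and 159.0 RPKM in cluster Tg. Both transgenics lay below WT without overlap, but the log2 differences of -0.41 and -0.83 were not called (limma adjusted p = 0.862 and 0.352). They were called without these 2 libraries, at a limma adjusted p = 0.0398 and 0.000481. In miR-23 Tg, where Hcst was not called, it read 219.1, 217.9 and 200.5 RPKM, also all below WT. In miR-27 Tg it read 149.8, 149.0 and, in replicate 3, 728.8 RPKM, and in DKO replicate 3 it read 445.7. Without these 2 libraries Hcst was called lower in miR-27 Tg too, at a log2 of -0.69 (limma adjusted p = 0.00501). Tyrobp, which encodes DAP12, read 0.365, 0.432 and 0.667 RPKM in WT and 4.21, 10.2 and 14.2 in miR-27 Tg, a log2 of 2.69 (limma adjusted p = 0.00818), or 2.36 without both libraries (adjusted p = 0.0193). In miR-24 Tg it read 11.7, 3.36 and 1.64 RPKM, a log2 of 1.83 (adjusted p = 0.0915), which was called without both libraries (adjusted p = 0.0397). Of 15 genes for ligands of these receptors, 14 were in the table and 3 were tested, and limma called 0 of them in each comparison with WT; the 1 gene at an unadjusted p under 0.05 was Clec2d in miR-27 Tg.

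**Figure D4:**
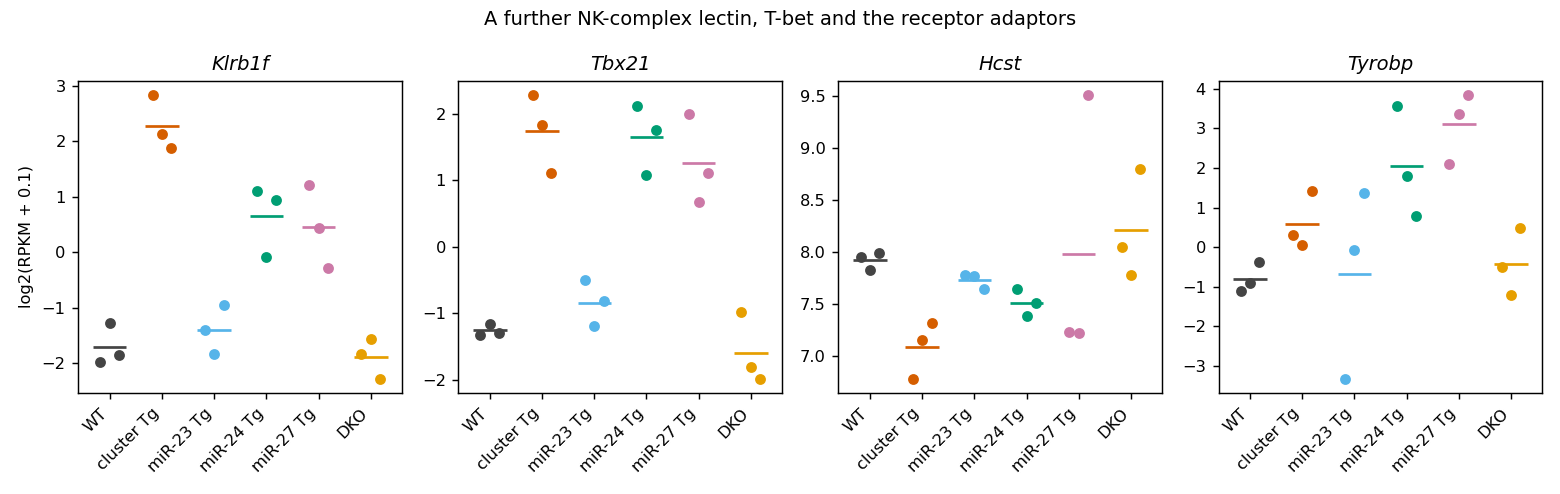
Levels of Klrb1f, Tbx21, Hcst and Tyrobp in every library as log2(RPKM + 0.1), by genotype; points are libraries and bars are means of the 3 log2 values. Klrb1f and Tbx21 lie above all WT libraries in the miR-24 Tg, miR-27 Tg and cluster Tg groups. Hcst lies below all WT libraries in cluster Tg, miR-24 Tg and miR-23 Tg, and in miR-27 Tg except for replicate 3.

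Of 16 transcription factors of NK, effector and naive T cells, 13 were tested. Tbx21, which encodes T-bet, read 0.300, 0.350 and 0.309 RPKM in WT and 4.25, 2.02 and 3.27 in miR-24 Tg. It rose in miR-24 Tg, miR-27 Tg and cluster Tg by log2 values of 1.63, 1.34 and 1.70 (limma adjusted p = 0.00319, 0.00591 and 0.00105). Tbx21 passed the filter only through libraries of these 3 genotypes, so it had to differ to be tested. No fit without a filter is given for it. Eomes rose in cluster Tg, by 1.23 (limma adjusted p = 0.00232), and stood at a log2 of 0.66 above WT in miR-24 Tg (adjusted p = 0.113, or 0.0473 without the 2 libraries). Id2, the inhibitor of E proteins, also rose in cluster Tg, by 1.03 (limma adjusted p = 0.00836). Thus 3 of 13 rose in cluster Tg and 1 each in miR-24 Tg and miR-27 Tg, with none lower. Over all genes 8.48%, 3.59% and 8.95% were called, so the 1 of 13 in miR-27 Tg is near the background. Without the 2 libraries named above, 4 rose and 2 fell in miR-24 Tg, 2 rose in miR-27 Tg and 5 in cluster Tg, beside 17.5%, 20% and 29.1% of all genes called.

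Of 13 genes for cytotoxic and effector products, 11 were tested. In miR-24 Tg 5 rose and 0 fell, with the chemokine Ccl5 at a log2 of 3.71, the granule protein Nkg7 at 2.51, the chemokine Xcl1 at 2.42, the interferon Ifng at 2.06 and the granzyme Gzmk at 1.92. In cluster Tg 4 rose and 2 fell, the latter being Fasl (-0.78) and Ctsw (-1.13). In miR-27 Tg 4 rose and 3 fell, among them perforin, Prf1 (-1.94). In the same order, 3.59%, 8.48% and 8.95% of all genes were called. Ifng passed the filter only through libraries of these 3 genotypes, and another gene that rose in miR-27 Tg passed only through that genotype. Gzmk and Xcl1 also reached 1 RPKM elsewhere, but in fewer libraries than the filter asks. All of these genes had to be high in these genotypes to be tested, and no fit without a filter is given for them. The medians over the 11 genes were 0.82, 0.56 and 1.23 in miR-24 Tg, cluster Tg and miR-27 Tg, beside 0.01, 0.00 and 0.03 over all genes. Between miR-24 Tg and cluster Tg, Fasl, Prf1 and Ctsw were higher in miR-24 Tg (1.22, 1.23 and 1.37) and Gzmk was lower (-1.63).

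Markers of other cells also differed between genotypes, and their part in these results was not tested. They moved with some receptors and not with others. In cluster Tg the sums for NK, effector or memory and B cell markers lay above WT, as did Klrk1, Klrc1 and Klrb1c. Klrd1 and Klrg1 overlapped WT there. The summed level of 13 NK cell genes, of which Klrb1c is one, ranged from 37.3 to 65.9 RPKM in miR-24 Tg and from 19.8 to 23.2 in WT, where Klre1 was listed at 0 in all 3 libraries. It was 26.4 to 27.8 RPKM in cluster Tg, 20.6 to 37.2 in miR-27 Tg, 16.6 to 26.6 in miR-23 Tg and 18.2 to 21.6 in DKO. Prf1 was the largest part of this sum in WT, at a mean of 14.6 RPKM, and averaged 26.6 in miR-24 Tg and 3.21 in miR-27 Tg. Other members moved the other way in miR-27 Tg, such as Tyrobp, with means of 9.52 RPKM there and 0.488 in WT. Ncr1, a defining NK receptor, read 1.20, 0.0717 and 0.0726 RPKM in miR-24 Tg and 0.140, 0.0311 and 0.0384 in WT. In miR-27 Tg it read 0.464, 0.614 and 0.276 RPKM, all above WT, and in cluster Tg 0.0759, 0.269 and 0.501, overlapping WT. Klre1, another NK receptor, read 1.21, 0.573 and 0.515 RPKM in miR-24 Tg, so all 3 libraries lay above the WT zeros. The same held in miR-27 Tg, at 0.760, 0.571 and 0.294 RPKM, and in cluster Tg, at 0.0899, 0.191 and 0.0847. Klrd1, Klrk1 and Klrb1c were each highest in miR-24 Tg replicate 1, the library with the most Ncr1 and Klre1. Klrd1 was 41.9 RPKM there and 35.2 and 39.6 in the other two.

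Markers of effector or memory T cells differed more between genotypes. The sums of their 11 genes were 192.8 to 496.8 RPKM in miR-24 Tg, 194.1 to 584.8 in miR-27 Tg and 401.7 to 790.6 with the whole cluster, against 64.8 to 83.8 in WT. No library of these 3 genotypes overlapped WT. Those of 7 NKT or innate-like T cell genes, of which Tbx21 is one, were 78.6 to 118.2 RPKM in miR-24 Tg, 29.4 to 97.5 in miR-27 Tg and 73.8 to 118.1 with the whole cluster, against 29.9 to 43.5 in WT. Both CD8 genes together reached 29.7 to 46.5 RPKM in miR-24 Tg, 31.9 to 78.8 in miR-27 Tg and 32.7 to 50.3 with the whole cluster, against 17.5 to 20.6 in WT. Genes of B cells and of myeloid cells, which T cells are not known for, showed a like pattern, with all B cell sums above WT and the myeloid sums overlapping WT in miR-24 Tg and cluster Tg. The 6 B cell genes summed to 16.8 to 74.7 RPKM in miR-24 Tg, 25.9 to 134.8 in miR-27 Tg and 16.2 to 34.0 with the whole cluster, against 3.98 to 5.56 in WT. The 6 myeloid genes summed to 13.1 to 122.7 RPKM in miR-24 Tg, 37.2 to 601.2 in miR-27 Tg and 19.0 to 32.6 with the whole cluster, against 9.62 to 20.4 in WT, where S100a8 was listed at 0. The B cell and myeloid sums of miR-23 Tg reached 17.5 and 15.6 RPKM at most, and those of DKO 6.23 and 19.9. Of 5 gamma delta T cell genes 2 were in the table, and their sum was 0.484 to 3.27 RPKM in miR-24 Tg and 0.142 to 0.282 in WT. In these sorted populations, a change in the number of cells that carry a receptor and a change in RNA per cell cannot be told apart.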

How the data were processed

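The authors deposited 1 table of RPKM values (18 library columns, 23953 rows of genes). The submitters' processing notes name the mouse build mm9, HOMER and STAR 2.2.0c. The sources used here do not give their roles, the gene models, or the treatment of strand and shared reads. Of repeated symbols (2 rows) the row with the highest mean was kept. Sequences come from GRCm38, and no coordinates were carried between builds.

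Values were analysed as log2(RPKM + 1). The filter kept 11099 genes that reached 1 RPKM in 3 or more libraries. Genotype was the only term of a linear model over the 18 libraries (limma 3.58.1, eBayes with trend, R 4.3.3), and adjusted p-values are Benjamini-Hochberg over all tested genes. The script was tested on simulated data. Receptors under the filter were tested in a fit without it and by exact permutation. Alternatives were another pseudocount, no filter, quantile normalisation, the replicate block, the 6 compared libraries alone, and leaving out libraries.

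Members, lists and tests were chosen with earlier results of these data known. Named genes are the 6 receptors, up to 5 called genes per list by size of change, Hcst, Tyrobp, H2-T23, Tbx21 and Eomes in any case, and the 5 genes most correlated with each receptor that passed the filter; Clec2d, Clec2i, Cd69, Ncr1 and Klre1 were named after their values were seen.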

Additional observations from a re-analysis of the deposited data

Results flagged for a closer look

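The change from WT differed between miR-24 Tg and cluster Tg, by the test of the difference itself in limma, for 3 lectin-like genes. For Klrd1 the change in miR-24 Tg was higher by a log2 of 2.02 (adjusted p = 0.000583), with all 3 miR-24 Tg libraries above all 3 of cluster Tg. For Klrk1 it was higher by 1.01 (adjusted p = 0.0303), with all 3 libraries above, and the call was lost in 8 of 13 alternatives. For Klrb1f it went the other way, by -1.20 (adjusted p = 0.0181), with all 3 miR-24 Tg libraries below all 3 of cluster Tg. Klrk1 and Klrb1f passed the filter only through genotypes in which they are high; without a filter their adjusted p were 0.0316 and 0.0216. The shared WT libraries cancel in each of these differences.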

How the results depend on the processing

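The calls of Klrd1 and Klrk1 in miR-24 Tg against WT held in 13 of 13 alternatives each and that of Klrg1 in miR-27 Tg in 8 of 8; no call reversed. The r of same-numbered libraries ran from -0.11 to 0.58 (median 0.07, 35 pairs) and that of different-numbered ones from -0.47 to 0.30 (median -0.04, 70 pairs); as not every same-numbered r was over 0.1, the numbers were not taken to pair the samples, and with the replicate block limma called 331 genes in miR-24 Tg against WT in place of 398, with no call of Klrd1 or Klrk1 changed.

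Counts over all genes moved more. Fitted to the 6 compared libraries alone, limma called 2302 genes in cluster Tg, 14 in miR-23 Tg, 851 in miR-24 Tg, 43 in miR-27 Tg and 4 in DKO against WT, and 457 in miR-24 Tg against cluster Tg. Without DKO replicate 3 and miR-27 Tg replicate 3 together, the counts were 3225, 432, 1937, 2218 and 2 against WT in that order, 3068 in cluster Tg against DKO, 1717 in miR-24 Tg against cluster Tg and 5648 in the F test. Quantile normalisation left 1 gene in miR-23 Tg. Leaving out 1 library gave 419 to 710 genes in cluster Tg, 1 to 1 in miR-23 Tg, 180 to 303 in miR-24 Tg and 533 to 1223 in miR-27 Tg against WT, 561 to 901 in cluster Tg against DKO, 76 to 159 in miR-24 Tg against cluster Tg and 1575 to 3809 in the F test, the last without miR-27 Tg replicate 3. In DKO against WT limma called 0 genes. The cause of these shifts was not tested. Leave-outs and the pseudocount of 0.1 without a filter were, for the 4 receptors under the filter, chosen after seeing the data.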
